A study of Mus musculus with 18 samples.

Results

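The replication-dependent histone genes were examined in RAW264.7 cells, a mouse macrophage line made with Abelson leukaemia virus that divides in culture. They were taken as every gene symbol of the expression table that starts with Hist1h, Hist2h, Hist3h or Hist4h, which gave 68 of 24411 symbols. By the histone type in the symbol, 6 are of the linker histone H1, 18 of H2A, 19 of H2B, 12 of H3 and 13 of H4. The H2B symbols include Hist3h2bb-ps, which is annotated as a processed pseudogene. The 18 libraries form 6 groups of 3. A control line, given a guide RNA without a named target, and a knockout (KO) line, given a guide RNA against the histone demethylase Kdm7a, were each kept for 48 h without stimulus (M0) or under one of 2 stimuli. M1 cells received LPS at 0.1 µg/ml with mouse IFN-γ at 2 ng/ml. M2 cells received human TGF-β1 at 2 ng/ml and the mouse cytokines IL-13, IL-10 and IL-4, each at 20 ng/ml. The labels name 1 control and 1 knockout line, so other differences between these lines cannot be told apart from an effect of Kdm7a. Whether replicates came from separate cultures is not said, and p-values then reflect the spread of these libraries alone, which may be technical.

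Replication-dependent histone genes supply the histones that package newly copied DNA, and in dividing cells most of their mRNA is made in S phase. They lie in clusters, mostly lack introns, and their mRNAs end in a conserved stem-loop instead of a poly(A) tail. The stem-loop is bound by Slbp, which is needed for the cut that forms the end, for translation and for timed decay. Some of these genes also give polyadenylated transcripts, a form described in differentiated and non-dividing cells. The libraries here were prepared from poly(A) RNA, per the labels' protocols. The levels below are therefore those of histone RNA recovered by poly(A) selection, and mRNA that ends at the stem-loop lacks the tail that this selection binds.

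All 68 symbols matched the GENCODE M21 annotation of GRCm38 (mm10). In it 54 lie on chromosome 13 between 21715763 and 23934851, 10 on chromosome 3 between 96219865 and 96270132, 3 on chromosome 11 and 1 on chromosome 6. A 16-base stem-loop matching the histone consensus was found in the annotated transcripts of 46 of the 68 genes (67.65%), against 22 of 21810 other protein-coding genes (0.1009%). The most frequent forms are shown because they mark the usual end of these mRNAs. They are written 5′ to 3′ as DNA, with the loop in capitals and the stem in lower case.
Form in 26 genes, among them Hist1h1c, Hist2h2aa1, Hist3h2a and Hist1h2ap: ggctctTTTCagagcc
Form in 7 genes, among them Hist1h4n: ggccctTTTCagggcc
Form in 6 genes, among them Hist1h2bk and Hist1h3c: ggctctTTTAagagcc
Form in 2 genes, among them Hist1h4i: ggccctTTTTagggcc
A poly(A) signal (AATAAA or ATTAAA) in the last 50 bases of an annotated transcript was found for 17 of the 68 histone genes (25%), against 78.1% of the other protein-coding genes. In 23 of the 68 genes the annotated transcript runs 100 or more bases past the stem-loop.

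Transcripts of most histone genes were scarce in these poly(A)-selected libraries. Values are TPM, a share of a fixed total that is corrected for gene length. Levels of different histone genes also depend on how much of each gene's RNA the selection recovers, which is not known. The depth of each library is unknown because TPM does not keep it. Across the 18 libraries, 5 histone genes were listed at 0 throughout, 61 were at 0 in at least 1 library, and 26 never reached 1 TPM. A group mean of 5 TPM or more was reached by 10 genes. In control cells a mean of 1 TPM or more was reached by 16 genes in M0, 12 in M1 and 13 in M2. In knockout cells it was reached by 10, 19 and 13 genes. Tests covered the 29 genes that reached 1 TPM in 3 or more libraries (2 H1, 5 H2A, 10 H2B, 6 H3 and 6 H4). Since a gene could pass this filter through one group alone, counts over the 29 are not counts over all histone genes.

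**Figure D1:**
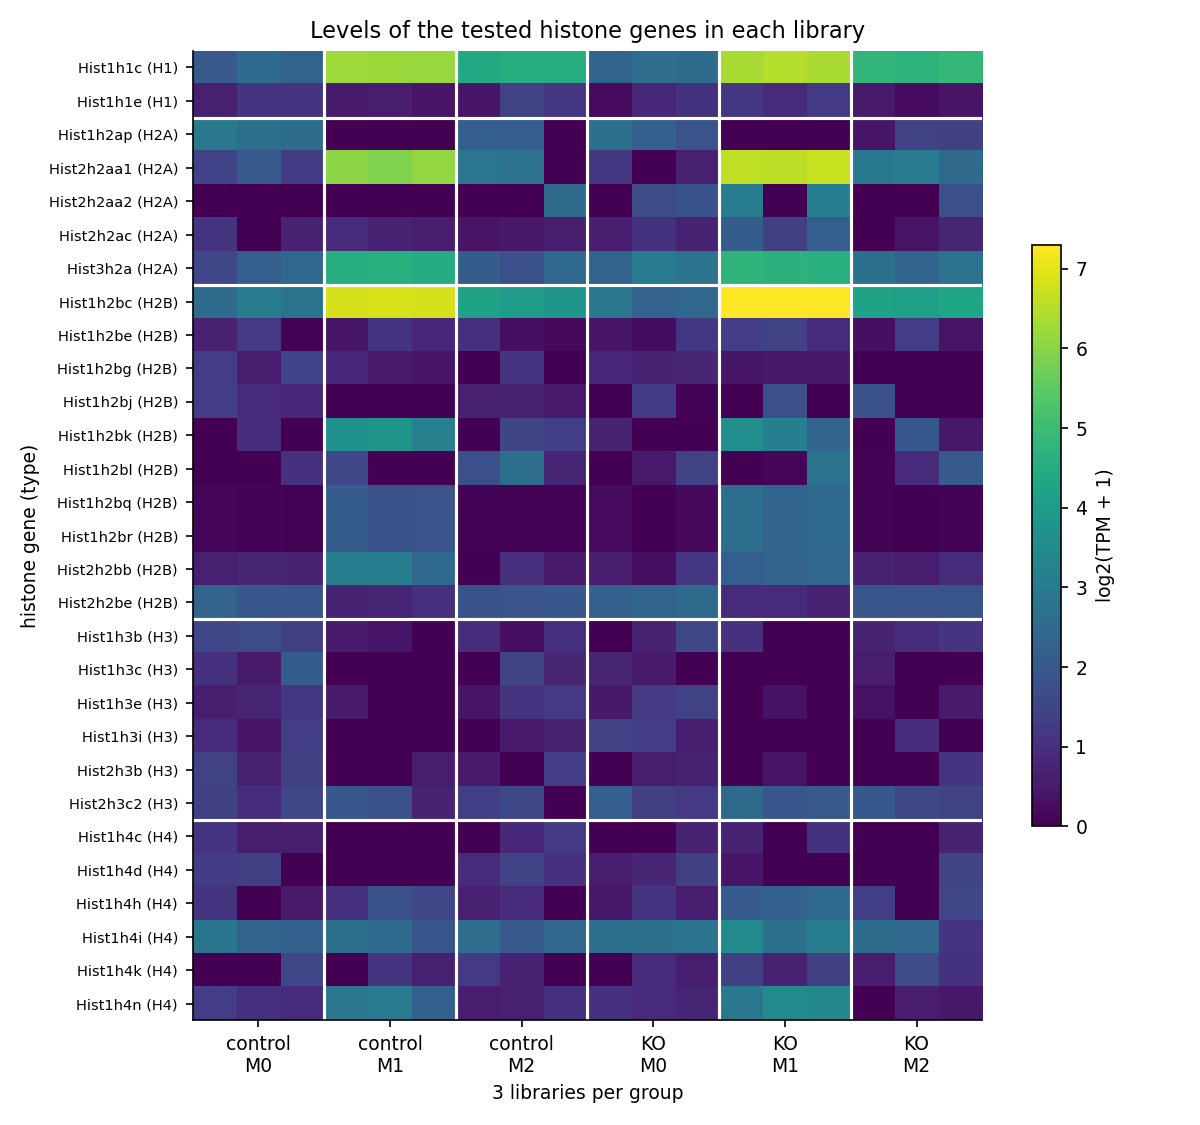
Level of each of the 29 tested histone genes, as log2(TPM + 1) in colour, with genes in rows by type and the 3 libraries of each group in columns. The M1 columns of both genotypes are bright for a few H1, H2A and H2B genes and dark for most H3 genes.

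Copies of near-identical sequence limit which gene a read can be given to. Hist1h2bq and Hist1h2br held the same value in all 18 libraries and share an unbroken stretch of 1603 bases in their annotated transcripts, so they are one measurement here. Hist2h2aa1 and Hist2h2aa2 share 528 bases, the whole annotated length of Hist2h2aa2. In the third control M2 library Hist2h2aa1 was listed at 0 and Hist2h2aa2 at 4.70 TPM, whereas the other two gave Hist2h2aa1 6.32 and 5.59 TPM and Hist2h2aa2 0. The sum of this pair is therefore also given. How the authors assigned shared reads is not given in the sources used here. Hist3h2a overlaps Trim17 on the same strand, and all 18 H2A genes overlap a predicted gene on the opposite strand. Whether the counting used strand is not given in the sources used here, so reads of such overlapping genes may not be told apart.

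The targeted gene was lower in every library of the knockout line. Kdm7a (chromosome 6, 39136623 to 39206789) stood at 11.1 ± 0.17 TPM in control M0 cells and 3.37 ± 0.14 TPM in knockout M0 cells (SD, n = 3 each here and below). In M1 the levels were 29.7 ± 0.85 and 7.49 ± 0.26 TPM, and in M2 23.3 ± 1.1 and 6.80 ± 0.88 TPM. Libraries of one group correlated at 0.997 or more on log2(TPM + 1) over all 24411 symbols, of which 7246 were at 0 in every library. The summed level of 8 macrophage markers lay between 2671 and 5598 TPM, and that of 5 T cell, 5 fibroblast and 4 epithelial markers stayed at or below 3.37 TPM. The 4 B cell markers, of which only Cd79a was tested, summed to 2.28 ± 0.27 TPM in control M0 and 13.8 ± 1.1 TPM in control M2 cells.

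Under M1 conditions the summed histone RNA was higher in every library than in M0, and most of it came from 4 genes. The sum over the 68 genes was 56.4 ± 1.4 TPM in control M0 cells, 319 ± 9.8 TPM in control M1 cells and 78.5 ± 7.2 TPM in control M2 cells. In knockout cells it was 56.0 ± 4.2, 430 ± 9.0 and 84.0 ± 2.8 TPM. The M1 sum was thus 5.65 times the M0 sum in control cells and 7.68 times in knockout cells, and the M2 sum 1.39 and 1.5 times. Hist1h2bc, Hist1h1c, Hist2h2aa1 and Hist3h2a made up 85.7% of the control M1 sum and 84.6% of the knockout M1 sum. In control M0 cells the 4 leading genes, Hist1h2bc, Hist1h2ap, Hist1h4i and Hist1h1c, made up 36.3%. The sums carry no test. In these bulk libraries, fewer cells with a transcript and less RNA per cell cannot be told apart.

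The summed levels of the histone types differed, and single genes carried much of the H1, H2A and H2B sums in M1. From control M0 to control M1 the summed level of the H1 genes went from 6.33 ± 1.2 to 73.5 ± 1.9 TPM, that of the H2A genes from 14.1 ± 1.4 to 88.9 ± 3.9 TPM, and that of the H2B genes from 15.7 ± 0.57 to 139.9 ± 5.9 TPM. Of these control M1 sums, Hist1h1c gave 72.6 TPM, Hist2h2aa1 and Hist3h2a 64.2 and 23.0 TPM, and Hist1h2bc 113.8 TPM. Without these genes the H1 and H2A sums of control cells were lower in M1 than in M0, and the H2B sum was higher. In knockout cells the rest of the H1 sum was not lower in M1. The control H4 sum was 10.6 ± 1.9 and 13.1 ± 3.2 TPM, with overlapping libraries. The control H3 sum went from 9.75 ± 3.0 to 3.65 ± 2.0 TPM, with every M1 library below every M0 library. H3 genes thus held 17.3% of the histone sum in control M0 cells and 1.15% in control M1 cells. In knockout cells the H1 sum went from 6.43 ± 1.2 to 85.9 ± 3.9 TPM, the H2A sum from 15.4 ± 2.0 to 131.6 ± 8.6 TPM and the H2B sum from 15.01 ± 1.5 to 183.6 ± 1.7 TPM. The knockout H3 sum went from 7.95 ± 0.56 to 4.89 ± 1.7 TPM, again with no overlap. These sums are unscaled. The factors for scaling by trimmed means (TMM) were 1.16 to 1.17 in M0 and 0.758 to 0.796 in M1 libraries. Divided by them, the M0 and M1 libraries of the H3 sum overlapped in both lines. The H4 sum, whose control libraries overlapped, went from 11.2 ± 1.3 to 24.0 ± 3.1 TPM in knockout cells, 2.14 times, and every knockout M1 library lay above every knockout M0 library. Under M2 conditions the H1 and H2B sums stood above M0 in all libraries of both lines. The H1 sum reached 23.6 ± 0.96 TPM in the control line and 28.3 ± 1.3 TPM in the knockout line, and the H2B sum 25.5 ± 4.6 and 25.9 ± 1.4 TPM, respectively. The H2A, H3 and H4 sums did not stand above M0 in all libraries of either line.

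**Figure D2:**
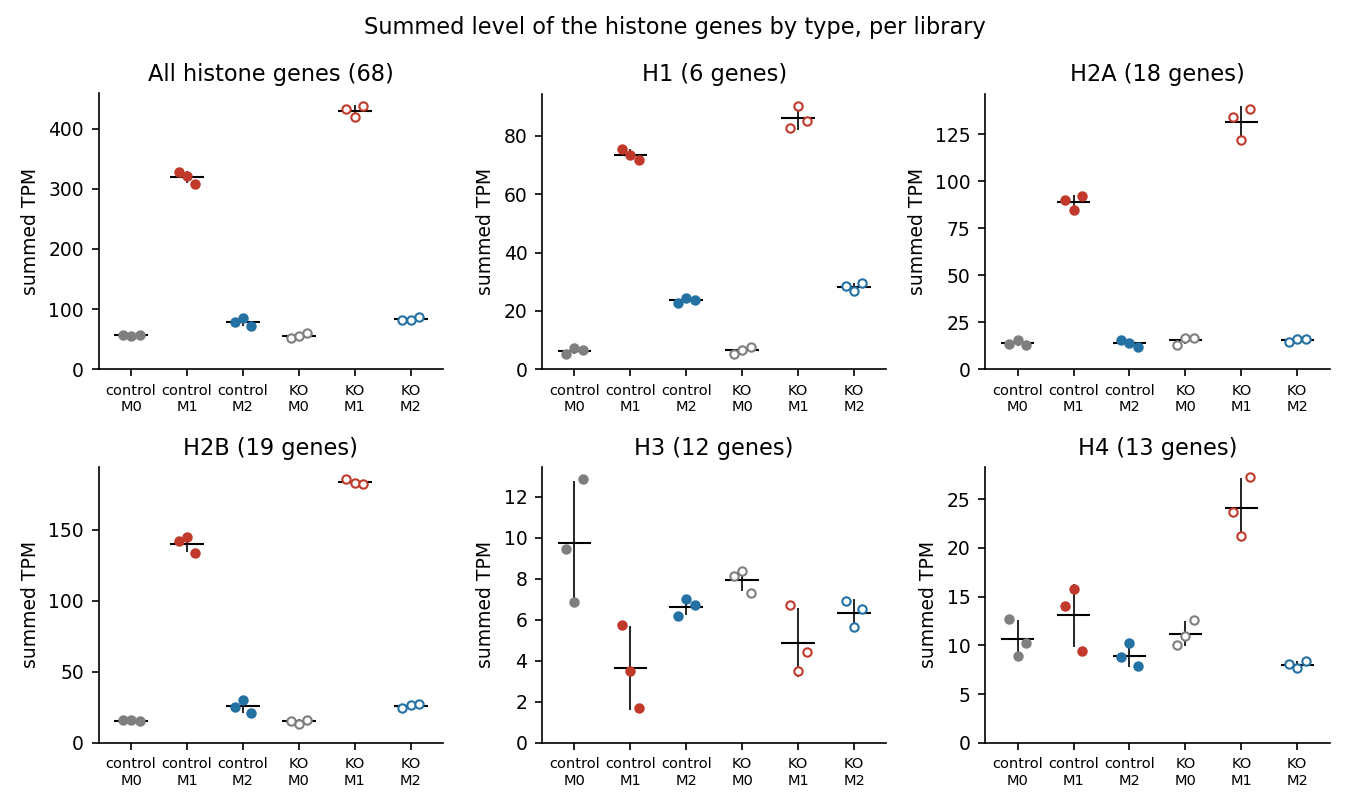
Summed TPM of the histone genes, in all and by type, for each library (points; filled for control, open for knockout), with the group mean (line) and SD (bar). The H1, H2A and H2B sums are highest in the M1 groups of both genotypes, and the H3 sum is lowest there on average.

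Of the 29 tested genes, 10 rose and 9 fell in the M1 response of control cells (limma on log2(TPM + 1), Benjamini-Hochberg adjusted p below 0.05, two-sided). Over all 11548 genes tested 89.1% were called in this comparison, 32.2% upward and 56.9% downward. Among the histone genes 34.5% rose, close to the background, and 31% fell. The median log2 change was 0.07 over the 29 genes and -0.38 over all genes tested. Scaling with TMM factors moved the latter to 0.08, and 10 histone genes then rose and 6 fell. By type, 1 of 2 H1 genes rose, 2 of 5 H2A genes rose and 1 fell, 5 of 10 H2B genes rose and 2 fell, 2 of 6 H4 genes rose and 1 fell, and 5 of 6 H3 genes fell with none rising. The filter favoured such calls, so these counts describe the genes that passed and support no direction. None of the 9 genes that fell reached 1 TPM in a control M1 library, and 7 of them, all 5 H3 genes included, would not have been tested without the M0 libraries. Hist1h3i reached 1 TPM in M0 libraries alone. Of the 10 that rose, 4 (Hist1h2bq, Hist1h2br, Hist1h4n and Hist2h2bb) would not have been tested without the M1 libraries. In knockout cells 11 of the 29 rose and 4 fell, beside 90.3% of all genes called, 32% upward and 58.4% downward. The 2 responses have no libraries in common, but they share the fitted variance.

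Linker histone RNA was led by one gene. Hist1h1c, which encodes a somatic linker histone, gave 3.15, 4.92 and 4.11 TPM in the control M0 libraries and 74.59, 72.41 and 70.73 TPM in the control M1 libraries. Every M1 library lay far above every M0 library, a log2 change of 3.88 ± 0.09 (SE; limma adjusted p = 1.47e-18). In knockout cells it went from 4.22, 5.12 and 4.97 TPM to 81.23, 88.91 and 82.16 TPM, also a log2 change of 3.88. Hist1h1e, another somatic H1 gene, remained between 0.31 and 1.20 TPM in these control libraries and was not called (log2 change -0.48, limma adjusted p = 0.0575). The annotated Hist1h1c transcript (chromosome 13, 23738808 to 23740367, plus strand, 1 exon) runs 840 bases past its stem-loop and has a poly(A) signal near its end.

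Among H2A genes, 2 rose and 1 fell. Hist2h2aa1 gave 1.77, 3.08 and 1.44 TPM in control M0 and 65.02, 58.63 and 69.00 TPM in control M1 cells (log2 change 4.43 ± 0.59, limma adjusted p = 9.40e-06). Summed with its copy Hist2h2aa2 the change was 4.43 ± 0.20 in control cells and 5.06 in knockout cells. Hist3h2a, the only H2A gene of its cluster on chromosome 11, gave 1.91, 3.67 and 4.33 TPM in control M0 and 23.43, 24.02 and 21.65 TPM in control M1 cells (2.53 ± 0.22, limma adjusted p = 2.79e-08). Neither gene's M1 libraries overlapped its M0 libraries. Hist1h2ap did the opposite. It gave 6.55, 5.18 and 4.93 TPM in control M0 cells, the highest H2A level there, and was listed at 0 in all 6 M1 libraries of both genotypes (limma adjusted p = 1.05e-04 in control cells). Its annotated transcript stops 3 bases past the stem-loop.

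H2B genes gave the largest share of the M1 histone RNA. Hist1h2bc gave 4.93, 7.54 and 6.03 TPM in control M0 and 112.03, 116.16 and 113.07 TPM in control M1 cells, a log2 change of 4.02 ± 0.13 (limma adjusted p = 2.38e-14). GENCODE annotates it (chromosome 13, 23684199 to 23692908, plus strand) only as a spliced transcript of 2 exons with no match to the stem-loop. Hist1h2bk was at 0, 0.95 and 0 TPM in control M0 and at 12.04, 12.76 and 8.08 TPM in control M1 cells (3.24 ± 0.55, limma adjusted p = 8.62e-05). Hist2h2bb went from 0.65 ± 0.072 to 6.59 ± 1.7 TPM (2.18 ± 0.24, limma adjusted p = 1.86e-07). Hist1h2bq, with the inseparable Hist1h2br, went from 0.053 ± 0.021 to 2.88 ± 0.43 TPM (1.88 ± 0.10) and also has annotated spliced transcripts. None of these overlapped between M0 and M1.
Other H2B genes behaved differently. Hist2h2be gave 4.05, 2.97 and 2.77 TPM in control M0 and 0.67, 0.68 and 0.96 TPM in control M1 cells, and fell in both genotypes (log2 change -1.26 ± 0.11, limma adjusted p = 7.56e-10 in control cells). Relative to the median of all genes its change was -0.88. The fall of Hist1h2bg rested on overlapping libraries (limma adjusted p = 0.0455) and was not called with TMM factors. Hist1h2bl ranged from 0 to 5.73 TPM with no call in any comparison.

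**Figure D3:**
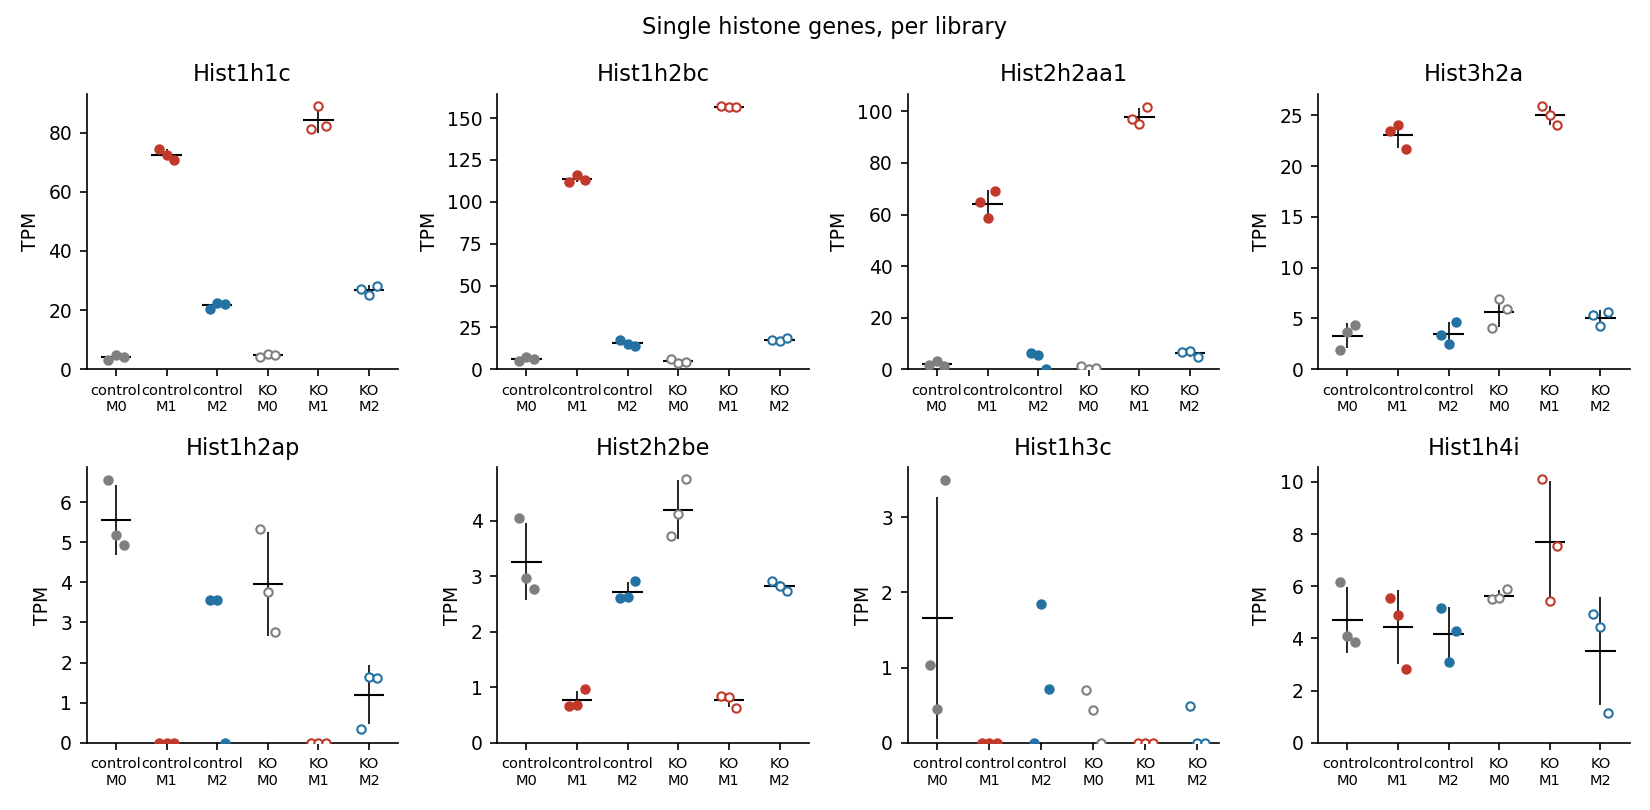
TPM of 8 single histone genes in each library (points; filled for control, open for knockout), with group mean and SD where no library of the group is at 0. The upper row shows genes with high M1 levels, and the lower row shows Hist1h2ap, Hist2h2be and Hist1h3c, which are low in M1, and Hist1h4i, which was not called.

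H3 genes were low everywhere, and those tested had mostly passed the filter through M0 libraries. Hist1h3b gave 1.94, 2.18 and 1.61 TPM in control M0 and 0.44, 0.36 and 0 TPM in control M1 cells (log2 change -1.21 ± 0.36, limma adjusted p = 0.00514; -0.83 relative to the median of all genes). Hist1h3c gave 1.04, 0.45 and 3.49 TPM in control M0 cells and 0 in all 6 M1 libraries. Hist1h3i was likewise at 0 in all 6 M1 libraries and at 0.88, 0.37 and 1.54 TPM in control M0 cells. Hist2h3b and Hist1h3e fell as well, with limma adjusted p-values of 0.0209 and 0.0215. Hist2h3b lost its call without control M0 library 1 or 3 or control M1 library 1 or 2 (limma adjusted p from 0.0649 to 0.0726), and Hist1h3e without control M0 library 3 or control M1 library 2 or 3 (0.0746 to 0.0988). The call of Hist1h3e was also lost with TMM factors (limma adjusted p = 0.0527). Hist2h3c2, the sixth tested H3 gene, stood at 1.49 ± 0.50 and 2.04 ± 1.2 TPM and was not called. In knockout cells Hist1h3e and Hist1h3i fell and the other four were not called.

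H4 genes were mixed. Hist1h4i gave 6.18, 4.10 and 3.85 TPM in control M0 and 5.54, 4.91 and 2.84 TPM in control M1 cells, with overlapping libraries and no call (log2 change -0.09, limma adjusted p = 0.822). Hist1h4n gave 1.5, 0.98 and 0.92 TPM and then 6.42, 6.82 and 3.78 TPM, a rise of 1.62 ± 0.20 (limma adjusted p = 3.68e-07). Hist1h4h, at 1.13, 0 and 0.43 TPM in M0 and 1, 2.53 and 1.96 TPM in M1, was called with overlapping libraries (limma adjusted p = 0.0432). That call was lost without library 2 or 3 of either group (limma adjusted p from 0.0831 to 0.168). Hist1h4c fell from 1.17, 0.49 and 0.50 TPM to 0 in all 3 libraries (limma adjusted p = 0.0398; 0.0576 with TMM factors). Hist1h4k and Hist1h4d were not called.

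The annotated ends of the tested genes are given as a description, with no test. Hist1h2bq and Hist1h2br are counted once here. Of the 9 that rose in control M1 cells, 6 have a stem-loop, 2 a transcript that runs 100 or more bases past it, 4 a poly(A) signal near an annotated end and 2 a spliced transcript. Of the 9 that fell, 6 have a stem-loop, 3 such an extended transcript, 1 a poly(A) signal near its end, which is Hist2h2be, and none a spliced transcript. Among the 10 tested genes without a call the numbers were 8, 5, 2 and 1. Hist1h2bk, Hist1h4n and Hist2h2aa1, which rose, have annotated ends 30, 31 and 35 bases past the stem-loop. The annotation does not show the RNA ends in these cells. RNAs that normally lack a poly(A) tail were measured as well. The summed level of 129 such RNAs (small nucleolar and other small RNAs) was 194 ± 43 TPM in control M0, 48.2 ± 16 in control M1 and 127 ± 56 TPM in control M2 cells, and 201 ± 95, 69.7 ± 28 and 92.65 ± 14 TPM in knockout cells. Of the 36 tested, 11 fell, 1 rose and 24 did not pass the test in the M1 response of control cells, so 33.3% were called, beside 89.1% of all genes. Their part in the histone values was not tested.

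H2A and H2B genes often start head to head, and 13 such pairs start within 500 bases of each other. The partner of Hist3h2a among these is the pseudogene Hist3h2bb-ps. In several the members did not share their level. Hist1h2ac, an H2A gene, gave 0.42, 0 and 0 TPM in control M0 and 0, 0.30 and 0 TPM in control M1 cells, while Hist1h2bc, whose start lies 250 bases away, rose to 113.8 ± 2.1 TPM. Hist1h2ap was listed at 0 in M1 while Hist1h2br, with 235 bases between the starts, rose. This rise cannot be told apart from a rise of Hist1h2bq, whose head-to-head partner is Hist1h2ao. Hist1h2ah was at 0 in all control M1 libraries while Hist1h2bk rose. Hist2h2be fell while its partner Hist2h2ac, at 0.667 ± 0.17 TPM in control M1 cells, was not called. The annotated Hist1h2ac transcript runs 2010 bases past its stem-loop and has no poly(A) signal near its end.

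**Figure D4:**
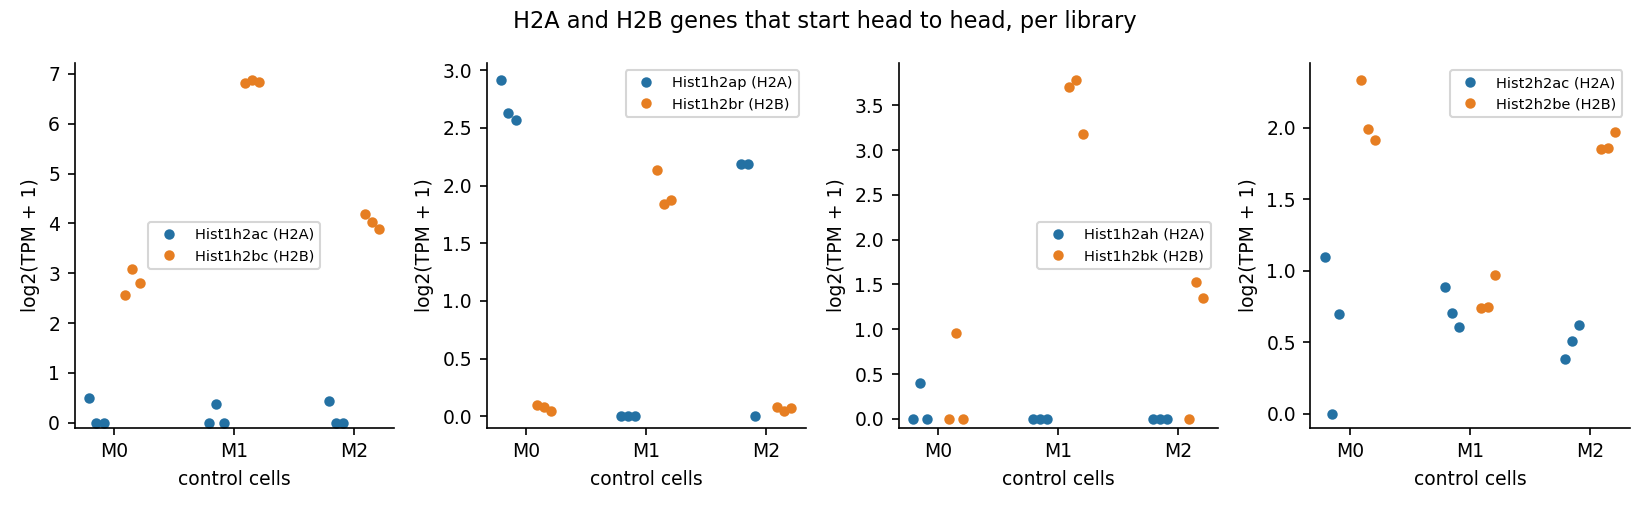
Level as log2(TPM + 1) in each control library for 4 pairs of an H2A gene (blue) and an H2B gene (orange) that start head to head. In the first 3 pairs the H2B gene is high in M1 while the H2A gene is near 0, and in the last the H2B gene is lower in M1. The values of Hist1h2br are also those of Hist1h2bq, so they cannot be given to Hist1h2br alone.

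Promoter sequence was available from RefSeq (GRCm38.p6, 250 bases before to 50 after the start) for 61 of the 68 genes. Of these, 14 hold the octamer ATTTGCAT on either strand (22.95%), 7 of 17 H2A and 7 of 16 H2B promoters and none of the other types, against 1.696% of 32789 other promoters. The H1 box AAACACA was found in 5 of 6 H1 promoters and in 7.17% of other promoters. TATAAA was found in 35 of 61 (57.38%, against 13.54%), and CCAAT in 52 of 61 (85.25%, against 37.32%) but in only 3 of 12 H4 promoters. No 2 of these motifs overlapped in a histone promoter. The 250 bases before the start are shown for the 4 genes with the highest M1 levels and for Hist1h2bk, with these motifs in capitals on either strand. That of Hist1h2bc is shared with Hist1h2ac, is read in the direction of Hist1h2ac and runs into the start of Hist1h2bc.
Hist1h1c (chr13:23738557-23738806, plus strand): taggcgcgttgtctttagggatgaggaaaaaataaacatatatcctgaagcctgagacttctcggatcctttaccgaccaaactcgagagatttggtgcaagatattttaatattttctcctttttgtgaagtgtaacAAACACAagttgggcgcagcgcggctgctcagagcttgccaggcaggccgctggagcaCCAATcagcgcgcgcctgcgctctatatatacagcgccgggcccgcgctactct
Hist1h2ac and Hist1h2bc (chr13:23683960-23684209, minus strand): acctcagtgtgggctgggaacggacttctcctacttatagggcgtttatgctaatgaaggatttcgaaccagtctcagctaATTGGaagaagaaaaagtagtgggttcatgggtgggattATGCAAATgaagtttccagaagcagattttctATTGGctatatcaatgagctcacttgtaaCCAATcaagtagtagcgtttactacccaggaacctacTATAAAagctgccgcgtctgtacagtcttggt
Hist2h2aa1 (chr3:96245247-96245496, plus strand): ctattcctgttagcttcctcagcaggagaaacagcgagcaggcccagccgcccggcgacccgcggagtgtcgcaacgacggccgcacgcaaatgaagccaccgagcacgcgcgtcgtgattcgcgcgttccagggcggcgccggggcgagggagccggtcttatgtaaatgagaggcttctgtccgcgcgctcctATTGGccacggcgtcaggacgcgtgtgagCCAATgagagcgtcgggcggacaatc
Hist3h2a (chr11:58954435-58954684, plus strand): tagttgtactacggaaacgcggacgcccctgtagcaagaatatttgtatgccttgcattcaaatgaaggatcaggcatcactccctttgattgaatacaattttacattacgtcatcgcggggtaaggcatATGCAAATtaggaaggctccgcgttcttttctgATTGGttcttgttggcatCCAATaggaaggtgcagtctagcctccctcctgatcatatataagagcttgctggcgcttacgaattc
Hist1h2bk (chr13:22035571-22035820, plus strand): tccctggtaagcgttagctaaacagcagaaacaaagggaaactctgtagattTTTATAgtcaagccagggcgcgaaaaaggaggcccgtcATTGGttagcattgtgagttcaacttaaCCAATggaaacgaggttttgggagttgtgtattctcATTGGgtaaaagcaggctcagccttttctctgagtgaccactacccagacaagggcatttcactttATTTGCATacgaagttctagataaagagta
The octamer is present in those of the Hist1h2ac and Hist1h2bc pair, Hist3h2a and Hist1h2bk, and the H1 box in that of Hist1h1c. In these 250 bases of Hist2h2aa1, only CCAAT was found. A match is a description and not a site shown to be bound.

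Under M2 conditions fewer of the tested histone genes were called than under M1 conditions. In control cells 2 of the 29 rose and 2 fell, beside 65.4% of all genes called, 28.4% upward and 37% downward. Hist1h1c gave 20.50, 22.24 and 22.08 TPM, above all M0 libraries (log2 change 2.17 ± 0.09, limma adjusted p = 1.48e-13). Hist1h2bc gave 17.33, 15.37 and 13.71 TPM, also above all M0 libraries (1.21 ± 0.13, limma adjusted p = 8.43e-07). Hist1h2ap, at 3.56, 3.55 and 0 TPM, fell (limma adjusted p = 0.0334), but the call was lost without any one control M0 library or without the M2 library at 0 (limma adjusted p from 0.0548 to 0.0902). Without the latter the log2 change was -0.52 in place of -1.25. Hist1h2bg fell with overlapping libraries. The Hist2h2aa1 and Hist2h2aa2 pair, summed, rose by 1.11 (limma adjusted p = 1.57e-04), although neither was called alone. In knockout cells 3 of the 29 rose and 6 fell, beside 72.9% of all genes called, 29.6% upward and 43.2% downward. Hist1h1c, Hist1h2bc and Hist2h2aa1 rose there, by 2.27, 1.68 and 2.22, and Hist1h2ap, Hist1h2bg, Hist1h3e, Hist1h3i, Hist1h4n and Hist2h2be fell. Summed with its copy Hist2h2aa2, the rise of Hist2h2aa1 was smaller, at 1.37 (limma adjusted p = 1.61e-05). The knockout call of Hist1h2ap was lost without M0 library 1 or 2 or M2 library 1, that of Hist1h3e without M0 library 2 or 3 or M2 library 2, and that of Hist1h4n without library 1 of either group (limma adjusted p from 0.0539 to 0.132).

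Between the knockout and the control line 0 of the 29 genes were called in M0, 6 in M1 and 2 in M2. The M0 count of 0 came from limma ( 4 at an unadjusted p below 0.05; 1 with TMM or median-ratio factors) and stood beside 19.2% of all genes, 8.86% upward and 10.3% downward. In M1 6 rose and none fell, beside 50.3% of all genes, 16.9% upward and 33.4% downward. The 6 are 20.7% of the 29, so their share upward was near the background. With a pseudocount of 0.1 TPM 1 gene was called, and with a filter of 5 TPM 2. The median log2 difference in M1 was 0.45 over the 29 genes and -0.06 over all genes. The knockout M1 libraries gave 156.97, 156.64 and 156.40 TPM for Hist1h2bc, all above the control values of 112.03, 116.16 and 113.07 TPM (0.46 ± 0.13, limma adjusted p = 0.00971). Hist1h2bq and Hist1h2br, as one measurement, gave 2.88 ± 0.43 and 4.67 ± 0.53 TPM (0.55 ± 0.10, limma adjusted p = 1.12e-04). Hist2h2ac gave 0.85, 0.63 and 0.52 TPM against 3.42, 1.63 and 3.56 TPM (1.18 ± 0.26, limma adjusted p = 0.00126), a call lost with a pseudocount of 0.1 TPM (limma adjusted p = 0.0657). Hist1h4n, with overlapping libraries, and Hist1h1e were called at limma adjusted p-values of 0.0260 and 0.0371, respectively. The call of Hist1h4n was lost without control library 3 or knockout library 2 or 3 (limma adjusted p from 0.0851 to 0.156), and that of Hist1h1e without any one control library or knockout library 1 or 3 (0.0582 to 0.113). Hist1h1c was not called (0.21, limma adjusted p = 0.0677) although its libraries did not overlap, and was called with TMM factors (limma adjusted p = 0.0176). Hist2h2bb went the other way, at 4.03 ± 0.50 TPM in the knockout and 6.59 ± 1.7 TPM in the control line. Its libraries did not overlap either, and it was not called (-0.57, limma adjusted p = 0.0580). Hist1h2bk was also lower on average, at 7.63 against 10.96 TPM, with overlapping libraries and no call. The summed Hist2h2aa pair was higher by 0.68 (limma adjusted p = 0.00979), while Hist2h2aa1 alone was not called.

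In M2 Hist1h1c was higher in the knockout line, at 27.09, 25.25 and 28.28 TPM against 20.50, 22.24 and 22.08 TPM (log2 difference 0.30 ± 0.09, limma adjusted p = 0.0183), a call lost without the first control or the third knockout library (limma adjusted p = 0.0731 and 0.0709). Hist1h1e was lower, with overlapping libraries (limma adjusted p = 0.0430), and lost the call in 9 of 14 alternatives, among them without library 2 or 3 of either line (limma adjusted p from 0.0859 to 0.191). Over all genes 30.9% were called there, 12.7% upward and 18.3% downward. The test of the difference between the 2 M1 responses called 6 of the 29, all upward, beside 36% of all genes (12.1% upward, 23.9% downward). The 6 are 20.7% of the 29 and include Hist1h2bq and Hist1h2br, which are one measurement. The count was 1 with a pseudocount of 0.1 TPM, 2 with a filter of 5 TPM, 3 without the variance trend, and 3 without control M1 library 3 or without knockout M1 library 3. The test of the difference between the M2 responses called none (limma; 3 at an unadjusted p below 0.05; 2 without a filter on low values), beside 14.1% (7.06% upward, 7.05% downward). The M1 responses and the comparisons of the 2 lines use the same M1 libraries, so these values are not separate evidence.

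**Figure D5:**
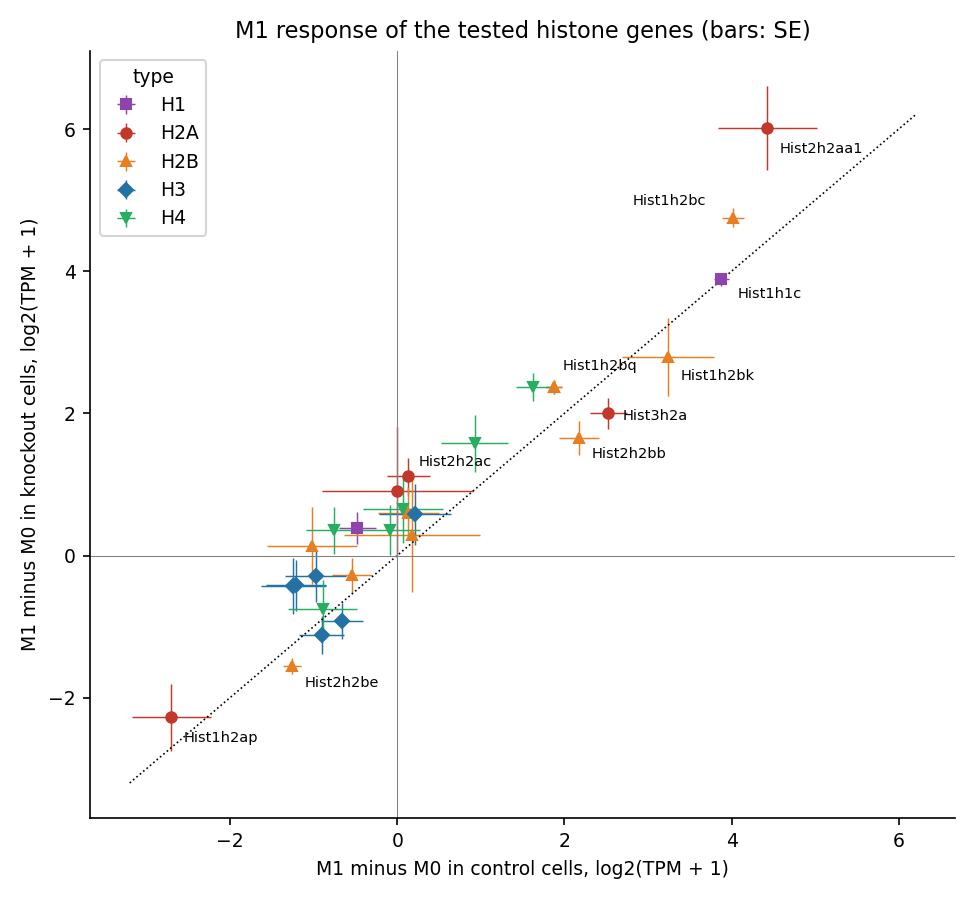
M1 minus M0 difference on the log2(TPM + 1) scale in control cells (x axis) and knockout cells (y axis) for the 29 tested histone genes, with standard errors and the type by symbol; the dotted line marks equal values. Hist1h2bc lies above the line at 4.02 and 4.75, Hist1h1c on it at 3.88, and Hist1h2ap at the lower left.

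Genes of histone mRNA processing and turnover moved in both directions in M1 cells. Of 22, 16 fell (72.7%) and 2 rose in control cells, beside 56.9% of all genes downward and 32.2% upward. With TMM factors 12 fell (54.5%) and 8 rose, beside 41.9% and 47.6% of all genes. Slbp went from 118 ± 5.1 to 50.1 ± 0.94 TPM (log2 change -1.22, limma adjusted p = 8.0e-17). Casp8ap2, a scaffold needed for histone transcription and 3′ end processing, went from 22.5 ± 1.1 to 8.79 ± 0.31 TPM. Npat, the coactivator of histone genes under cyclin E and Cdk2, stood at 15.8 ± 0.61 and 16.7 ± 0.89 TPM and was not called (limma adjusted p = 0.270), while TMM factors called it higher. Zcchc6, a terminal uridylyl transferase, rose from 27.4 ± 0.61 to 100 ± 2.8 TPM. Ncbp2 of the cap-binding complex and Cpsf3 and Cstf2 of the cleavage machinery fell. These directions did not flip with TMM or median-ratio factors except as stated for Npat and the counts.

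Genes of DNA replication were lower in M1 cells. All 26 fell in the M1 response of control cells, beside 56.9% of all genes (24 with TMM factors, with 1 rising), and their summed level was 3892 ± 36 TPM in M0 and 608 ± 16 TPM in M1. Tk1, Rrm2, Mcm6 and Mcm2 went from 282, 205, 348 and 168 TPM to 1.01, 0.897, 8.13 and 3.66 TPM. In knockout cells the sum was 4096 ± 68 and 444 ± 4.7 TPM. Of 14 genes that promote or restrain S phase entry 11 fell, among them Ccna2, E2f8, E2f7 and E2f2, and 3 rose. The counts were the same under TMM factors. The 3 were the inhibitors Cdkn1a, from 224 to 1693 TPM, Cdkn1b, from 29.5 to 61.2 TPM, and Rb1, from 20.8 to 23.4 TPM. The 9 tested replication-independent histone variants gave 8 falls and 1 rise, H3f3b at 520 ± 10 and 845 ± 6.4 TPM, and TMM factors gave 7 falls and 2 rises. H3f3b encodes the H3.3 protein that is laid down outside S phase. H3f3a, which also encodes H3.3, stood at 1242 TPM in control M0 and 1098 TPM in control M1 cells. Its direction depends on scaling. The TMM factors were 1.16 to 1.17 in control M0 and 0.792 to 0.796 in control M1 libraries, and divided by them H3f3a was higher in M1. The level of H3f3b was far above that of all 12 H3 genes described here together. That comparison is limited, because mRNA of these 12 genes that ends at the stem-loop lacks the tail that poly(A) selection binds. Cenpa, H2afx, H2afz and H2afv fell. Of 24 histone chaperones 22 fell, Asf1b, Hirip3 and Chaf1a among them, and Daxx, a chaperone of H3.3, rose from 29.3 ± 0.62 to 325 ± 5.0 TPM. Under M2 conditions the replication sum of control cells was 2930 ± 14 TPM, and 24 of the 26 genes fell.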

How the data were processed

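The members, gene lists, rule for named genes and tests were chosen with earlier results of these data known. Poly(A) RNA of 18 RAW264.7 libraries was sequenced, and the authors deposited TPM per gene symbol with 2 decimals. Trim Galore and mm10 are named per the submitters' processing notes. Aligner, quantifier and annotation: not given in the sources used here. TPM keeps no depth, so no counting interval was computed. TPM is a share: strong rises of some genes lower the values of others.

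Values were tested as log2(TPM + 1) with limma 3.58.1 in R 4.3.3 (trend, robust, 6 group means, two-sided), for the 11548 genes that reached 1 TPM in 3 or more libraries, with calls made where the Benjamini-Hochberg adjusted p was under 0.05. Fold changes on this scale understate changes of low genes. The script was tested on simulated data. Genes at 0 in a library of a group are given by library. Named genes were Kdm7a, Slbp, Npat, Casp8ap2, the 5 tested members of each type with the highest mean, those called against their type at 2 TPM or more, those changed 2-fold or more between lines, and up to 4 of each other list. Other names, such as Hist1h2bq, Hist1h2br, Hist1h2bg, Hist1h3i, Hist1h4c, Hist1h2ac, Hist1h2ah and H3f3b, were chosen after their values were seen. Gene positions and transcripts came from GENCODE M21, promoters from RefSeq GRCm38.p6 (61 of 68 matched through synonyms). Scaling, filter, pseudocount, variance trend, replicate block, samples fitted and left-out libraries were varied.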

Additional observations from a re-analysis of the deposited data

Results flagged for a closer look

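The M1 response differed between the knockout and the control line for 6 histone genes, by the test of the difference itself (limma on log2(TPM + 1); knockout response minus control response), and each difference was upward. They are 20.7% of the 29 tested, beside 12.1% of all genes upward and 36% in either direction. Hist1h2bq and Hist1h2br are one measurement, so 5 genes are left with copies counted once. The count was 1 with a pseudocount of 0.1 TPM and 2 with a filter of 5 TPM. For Hist1h2bc, the H2B gene with the highest M1 level, the difference was 0.737 (adjusted p = 0.00666, limma), and this call held in all 21 alternatives with adjusted p-values from 2.09e-04 to 0.0196. It is made up of the M1 difference between the lines, 0.46 with no overlap of the libraries, and of a lower M0 value in the knockout line, -0.28 with overlapping libraries and no call (adjusted p = 0.174, limma). For Hist1h2bq it was 0.497 and for Hist1h2br 0.497 (adjusted p = 0.00860, limma), from the same values.

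The remaining differences were near the threshold. For Hist1h1e, a linker histone gene, the difference was 0.858 (adjusted p = 0.0459, limma), lost in 12 of 20 alternatives. For Hist1h4n it was 0.752 (adjusted p = 0.0427, limma), lost in 11 of 21. For Hist2h2ac it was 0.983 (adjusted p = 0.0480, limma), lost in 14 of 20.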

How the results depend on the processing

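Of 46 called changes of single named histone genes, 30 kept their call in every alternative run for them and 16 lost it at least once; no direction was reversed. Hist1h2bq, Hist1h2br, Hist1h2bg, Hist1h3i and Hist1h4c were not rerun one by one. The number of histone genes called moved by over 1.5 times as follows; the cause was not tested, except that a filter of 5 TPM leaves 8 histone genes and no filter adds many. With TMM factors the M0 difference between lines gave 1 call, with median-ratio factors 1, without a filter 1, and with the replicate block 1. The M2 difference between lines gave 1 with median-ratio factors, 1 without the variance trend, 4 without a filter, 1 at 5 TPM, 1 with a pseudocount of 0.1 TPM and 1 with only the groups compared. The M1 difference between lines gave 2 at 5 TPM and 1 with a pseudocount of 0.1 TPM. The difference between M1 responses gave 3 without the variance trend, 2 at 5 TPM and 1 with a pseudocount of 0.1 TPM, and that between M2 responses gave 2 without a filter. The M1 response gave 7 at 5 TPM in control cells and, in knockout cells, 7 at 5 TPM and 24 without a filter. The M2 response gave 8 without a filter in control cells and 5 at 5 TPM in knockout cells.

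Leaving out 1 library at a time gave 0 to 3 calls for the M0 difference between lines, 1 to 2 for M2, 3 to 6 for the difference between M1 responses and 0 to 2 for that between M2 responses. The summed TPM of control M0, M1 and M2 cells was 48.4, 401 and 70.3 with TMM factors and 49.98, 391 and 69.8 with median-ratio factors. In knockout cells it was 48.1, 566 and 76.9 with TMM and 49.6, 553 and 76.3 with median-ratio factors. Over the tested genes alone it was 47.3 TPM in control M0, 71.2 in control M2, 45.6 in knockout M0 and 77.5 in knockout M2 cells.

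Replicate numbers are shared by the groups. The median correlation of deviations was 0.018 for libraries with the same number and -0.011 for different numbers, both small. It was above 0.1 in 7 of 45 pairs with the same number and in 6 of 90 with different numbers. With the number as a replicate block, 18 histone genes were called in the M1 response of control cells, in place of 19. With copies counted once, chosen after seeing the data, 18 were called. With unknown depth and few genes above 5 TPM, small differences of the low members may not be detectable.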
